A study of Arabidopsis thaliana with 57 samples.

Results

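Rosette leaves of Arabidopsis plants that had been through a water shortage and then returned to standard conditions were compared with leaves of the control group, library by library and gene by gene. The comparison rests on 6 of the 57 RNA-seq libraries of the series, 3 labelled Drought_recovery and 3 labelled Cont_recovery, which were taken by these labels and not by any measured value. All plants were wild type of the accession Col-0 and 18 days old at harvest, 6 h after the lights came on. The drought recovery plants had grown on soil for 12 days, received too little water for 3 days and then spent 3 days under standard conditions. These were 12 h days at 22 °C and nights at 18 °C, with light of 120 µmol per square metre per second and a relative humidity of 65%. The control plants carried the label of the same setup with no stressor. The labels do not give the soil water content, how water was returned, or whether a library holds 1 rosette or several.

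Other groups of the series served as references. The drought end-point group (3 libraries) was stressed from day 15 and harvested on the same day of age with no recovery. These were other plants, stressed at a later age, so end-point and recovery values do not follow the same plants over time. The mean of the 7 other matched recovery groups (cold, cold with high light, heat, heat with high light, heat with drought, high light, and water excess under sealed trays; 21 libraries) was a second reference beside the control, because 1 set of 3 control libraries may be odd. Nothing says that replicates came from separately grown plants, so the tests see the spread among these libraries alone, which may be technical. In whole leaves, fewer cells of a type and less RNA per cell cannot be told apart.

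Leaves that lose water build up abscisic acid, which binds receptors of the PYR/PYL family, holds back phosphatases such as ABI1 and HAI1, and so frees kinases that switch on protective genes such as RD29B and the dehydrin RAB18. Proline and raffinose sugars accumulate, while water channel, cell wall and cell division genes are turned down. On rewatering, abscisic acid is broken down and proline is oxidised, and growth resumes. Rehydrated leaves are also known to raise salicylic acid-linked defence genes, among them PR1, PR2 and PR5, whose products are secreted antimicrobial proteins.

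Values are regularised log2 counts (rlog) as deposited, from which each library's median over the tested genes was subtracted, and a difference is drought recovery minus control on that scale. A gene is said to have risen or fallen by that difference where it passed the test, and an end-point value given beside it is also a difference from the control unless said otherwise. Rlog draws the values of genes with few reads together, so folds of low genes are understated, and the read depth behind a value is unknown. The library medians before centring were 8.03, 8.09 and 7.98 after drought and 8.01, 7.86 and 7.86 in the control, a difference of 0.12 (exact permutation test, two-sided, p = 0.20, with 0.1 the smallest p that 3 against 3 allows). Gene values correlated at 0.995 to 0.997 within drought recovery, 0.996 to 0.998 within the control and 0.984 to 0.997 between them. On the first principal component of the 27 recovery libraries, which held 46.8% of the variance, the drought recovery libraries lay at 10.8, 33.8 and 21.1 and the controls at -1.3, -14.3 and -16.5. Single libraries of other recovery groups lay as far out: high light replicates 2 and 3 at 34.6 and 24.1, heat with high light replicate 3 at 29.8 and heat with drought replicate 3 at 29.3. Leaf antenna transcripts such as LHCB3 were abundant in both groups. Of the meristem, root, flower and seed markers, WUS, CLV3, COBL9, RHD6, AP1, AP3, PI, LFY, CRA1, CRU3 and OLEO1 stayed below the filter. The meristem markers STM and KNAT1, the root markers PYK10 and WOX5 and the flower markers AG and SEP3 passed it.

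Among the 19010 genes with a mean rlog of at least 3, 802 (4.22%) differed between drought recovery and control at an adjusted p of 0.05 (limma, Benjamini-Hochberg), and 4399 (23.1%) at an unadjusted p under 0.05. Of these, 408 (2.15%) were higher and 394 (2.07%) lower, and the rises were larger. The median difference of the higher genes was 0.51 (0.24 to 3.30), and that of the lower genes -0.33 (-1.05 to -0.22). A difference of at least 1 was reached by 52 called genes (0.274%), 51 higher and 1 lower, SEN1. Without centring, 450 genes were higher and 36 lower, so the balance of directions depends on the scaling. The count also rests on the control libraries: it was 73 without control replicate 2, 78 without control replicate 3, and 1815 without drought recovery replicate 1. The counts without drought recovery replicates 2 and 3 were 513 and 531, and the count without control replicate 1 was 1091.

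Set against the mean of the other recovery groups, far fewer genes stood apart. At an adjusted p of 0.05 in limma, 1 gene (0.00526%) differed, and 3413 (18.0%) passed an unadjusted 0.05. The same gene, BCA3, was the 1 called against both references. The controls themselves differed from the other recovery groups at no gene by the adjusted p and at 349 genes (1.84%) by the unadjusted one. No gene called against the control had the opposite sign against the other groups. Both comparisons use the same drought recovery libraries, so neither this match in sign nor the medians that follow are independent support. The 408 higher genes had a median difference of 0.36 from the other recoveries, while the control lay 0.17 below those groups for them (median -0.17). For the 394 lower genes these medians were -0.23 and 0.10. In 380 of the 408 higher genes at least 1 of the 21 other recovery libraries exceeded the drought recovery mean, most often high light replicate 2, which was the highest in 150.

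The calls against the control therefore depend on which libraries set the spread. In the 6 libraries tested, the median residual SD of the 802 genes was 0.11, and over all 27 recovery libraries it was 0.21; the genes were called in the 6 libraries, which favours a small SD there. A limma fit that took its spread from all 27 recovery libraries called 0 genes against the control, with 3112 (16.4%) at an unadjusted p under 0.05, 595 of the 802 among them. A fit over all 51 matched libraries also called 0, with 2853 (15.0%) unadjusted. Without heat with high light replicate 3, 499 genes (2.62%) differed from the mean of the other groups, 193 higher and 306 lower, and 146 were called against both references. Of those 146, 66 were higher and 80 lower. They included 13 of the named genes, among them SEN1, ARPN, PP2-A13 and BAM6, and 0 of the salicylic acid defence list, of which 16 of 24 passed the unadjusted p in that fit.

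BCA3 (AT1G23730, chromosome 1, 8395466 to 8398387, plus strand), a beta carbonic anhydrase that interconverts carbon dioxide and bicarbonate, had centred values of -1.68, -2.04 and -2.11 after drought and -2.62, -2.46 and -2.53 in the control. All drought recovery libraries were above all controls and above the highest of the 21 other recovery libraries, at -2.20. The difference was 0.59 ± 0.11 (SE) from the control (adjusted p = 0.0149) and 0.52 from the other groups (adjusted p = 0.0471). At the drought end-point it was 0.01 from the control. Gene AOR overlaps it on the opposite strand, and whether reads were counted by strand is not given in the sources used here; AOR itself differed by -0.24 (adjusted p = 0.0700).

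**Figure D1:**
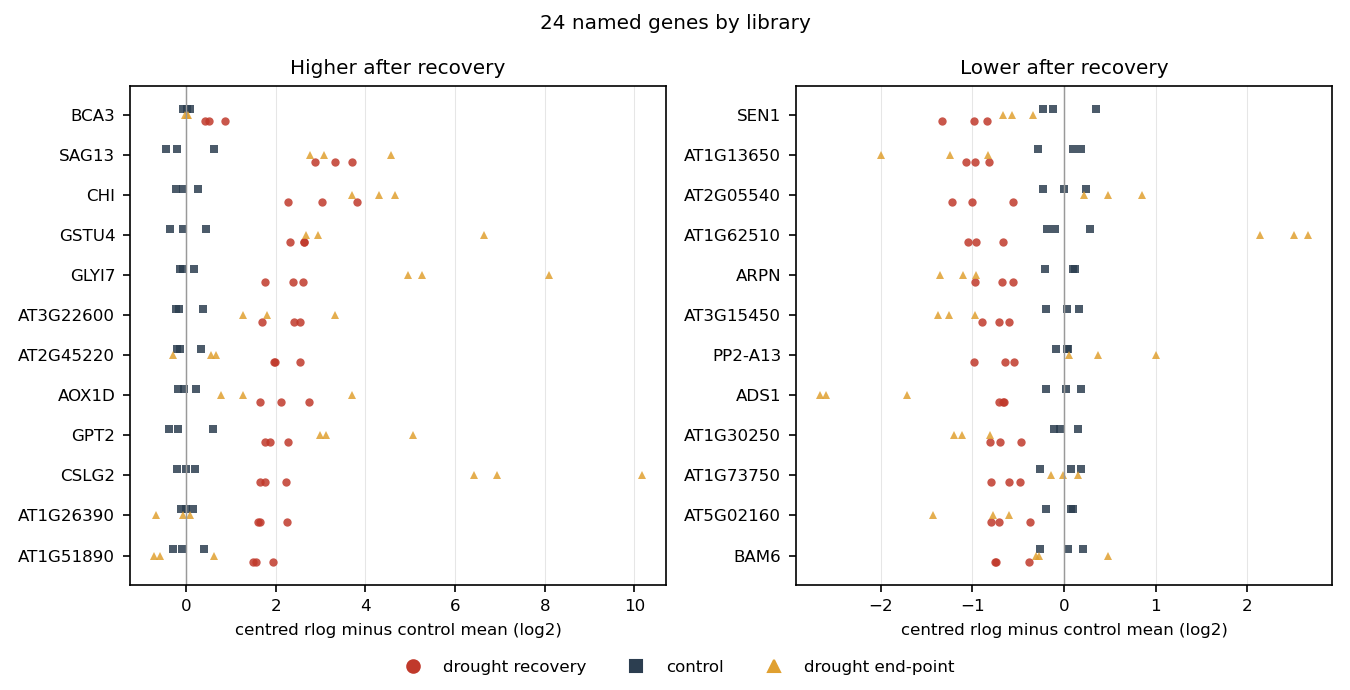
Centred rlog of 24 named genes in each library, drawn as the difference from the control mean (log2), for genes higher (left) and lower (right) after drought recovery; each symbol is 1 library of 3 per group. Drought recovery and control symbols do not overlap for any of these genes, since that was part of how they were named, while end-point symbols lie beyond, between or opposite to them.

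The largest rise was that of SAG13. SAG13 (AT2G29350, chromosome 2, 12600914 to 12602556, plus strand), a short-chain dehydrogenase gene used as a marker of senescing and infected leaves, had centred values of 0.17, 0.60 and 1.00 after drought recovery and -2.08, -2.91 and -3.16 in the control. All drought recovery libraries were above all controls. Its difference of 3.30 ± 0.39, a fold of 9.86, passed the test (adjusted p = 0.0293). SAG13 stood 3.47 above the control at the drought end-point too, and recovery differed from that end-point by -0.17 (adjusted p = 0.80). In the other recovery libraries it ranged from -3.61 to 1.49 around a median of -1.86, so drought recovery was not alone at that level.

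The chitinase gene CHI (AT2G43570), whose enzyme class cuts fungal cell walls, had values of -0.68, 0.86 and 0.07 against -2.68, -3.17 and -3.01 and rose by 3.03 ± 0.45 (adjusted p = 0.0482). GSTU4, a tau-class glutathione transferase of detoxification, had values of -1.48, -1.17 and -1.17 against -3.36, -3.88 and -4.16 and rose by 2.53 ± 0.21 (adjusted p = 0.00420). AT3G22600, which RefSeq describes as a lipid transfer protein held by a membrane anchor, was 2.21 ± 0.30 higher (adjusted p = 0.0294). In each of these 3 genes the drought recovery libraries lay above every control. The end-point differences were 4.22, 4.09 and 2.12. End-point replicate 3 was the highest by far for GSTU4, at 2.85 against -1.13 and -0.85. The same library was highest for AT3G22600, at 0.66 against -1.40 and -0.86. For these 2 genes recovery and end-point did not differ past the threshold (limma adjusted p = 0.237 and 0.896).

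The upstream sequences of these 3 genes are shown because each holds a W box, the site bound by WRKY factors of the defence response. Windows run from 250 bases before to 50 bases after the RefSeq gene start (TAIR10.1), 5′ to 3′ on the gene's strand, with the W box (TTGACC or TTGACT, either strand) in capitals. Among the named genes that passed the test, they are the 3 with the largest rises whose window holds that motif, and were chosen after the values were seen.
CHI, chr2:18077468-18077767, minus strand: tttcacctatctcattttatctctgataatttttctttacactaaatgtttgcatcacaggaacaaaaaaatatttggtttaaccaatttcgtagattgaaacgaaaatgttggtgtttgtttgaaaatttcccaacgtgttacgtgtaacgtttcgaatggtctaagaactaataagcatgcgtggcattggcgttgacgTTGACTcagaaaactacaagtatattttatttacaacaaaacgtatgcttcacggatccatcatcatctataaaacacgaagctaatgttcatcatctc
GSTU4, chr2:12627842-12628141, minus strand: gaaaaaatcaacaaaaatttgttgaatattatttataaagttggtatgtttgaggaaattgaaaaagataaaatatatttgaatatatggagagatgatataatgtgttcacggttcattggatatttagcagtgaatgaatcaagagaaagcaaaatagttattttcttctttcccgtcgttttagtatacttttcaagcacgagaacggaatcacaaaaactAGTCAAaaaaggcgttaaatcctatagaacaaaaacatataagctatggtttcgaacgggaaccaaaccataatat
AT3G22600, chr3:8007787-8008086, minus strand: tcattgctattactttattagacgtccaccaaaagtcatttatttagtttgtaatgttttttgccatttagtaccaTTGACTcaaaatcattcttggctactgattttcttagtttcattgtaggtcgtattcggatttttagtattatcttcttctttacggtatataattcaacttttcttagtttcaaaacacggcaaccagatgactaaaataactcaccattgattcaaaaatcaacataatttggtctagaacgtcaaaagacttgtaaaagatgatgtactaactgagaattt
Each window holds 1 site, starting at base -49 of CHI and -174 of AT3G22600 on the gene's strand, and at base -26 of GSTU4 on the opposite strand. A W box was present in 201 of 407 windows of the higher genes (49.4%), in 102 of 386 windows of the lower genes (26.4%) and in 6047 of 18715 windows of tested genes (32.3%). In 27443 windows of protein-coding genes on chromosomes 1 to 5 the share was 32.4%. SAG13 itself held none, and 6 of the 24 salicylic acid defence genes held one. These shares describe letters in the windows, not bound sites.

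Other large rises lay in mitochondria, plastids and the cell wall. AOX1D, an alternative oxidase that passes electrons around part of the respiratory chain, had values of -1.51, -1.98 and -0.88 against -3.67, -3.39 and -3.81 and rose by 2.16 ± 0.32 (adjusted p = 0.0401). GPT2, which carries glucose-6-phosphate into plastids, had values of -0.65, -0.78 and -0.25 against -1.94, -2.91 and -2.72, a rise of 1.97 ± 0.31 (adjusted p = 0.0437). GLYI7, of the glyoxalase family, rose by 2.25 ± 0.25 (adjusted p = 0.0184), and CSLG2, a cellulose synthase-like gene, by 1.88 ± 0.18 (adjusted p = 0.00631). For GPT2, GLYI7 and CSLG2 the end-point differences, in other plants, were 3.71, 6.11 and 7.84. End-point replicate 3 was highest for each: 2.52 against 0.46 and 0.58, 3.14 against 0.31 and -0.01, and 4.68 against 0.95 and 1.45. The pectin methylesterase gene AT2G45220 (2.17 ± 0.21), the berberine-type oxidase gene AT1G26390 (1.83 ± 0.17) and the receptor kinase-like gene AT1G51890 (1.66 ± 0.19) also rose. Their end-point differences of 0.30, -0.23 and -0.23 did not pass the test.

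**Figure D2:**
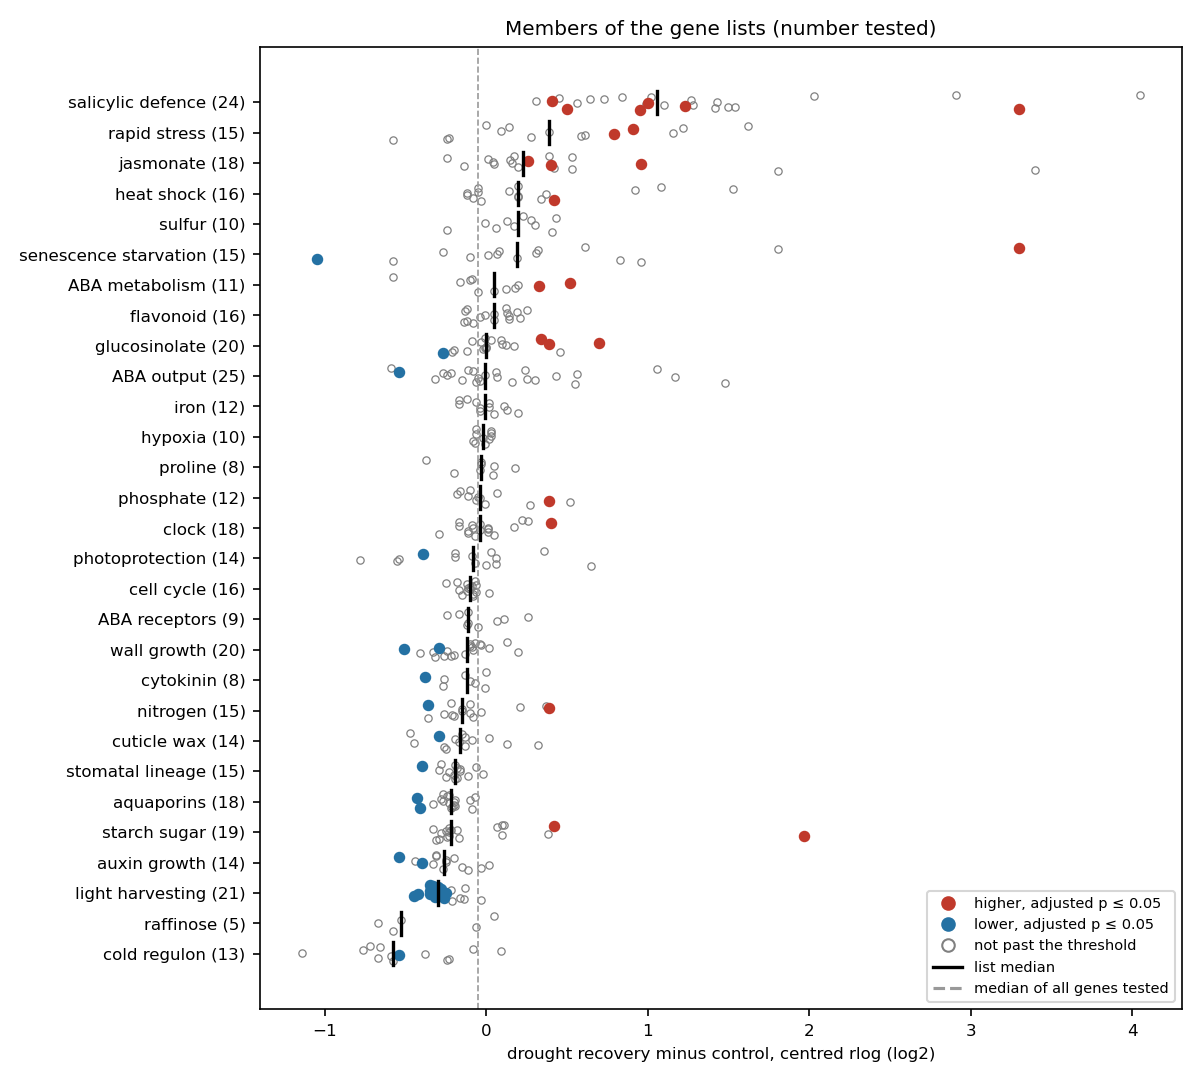
Difference between drought recovery and control (log2, centred rlog) for each tested member of the gene lists, ordered by list median, with the number tested in brackets; filled points passed an adjusted p of 0.05, vertical bars are list medians and the dashed line is the median of all tested genes, -0.05. All 24 salicylic defence genes lie to the right of 0 and all 21 light harvesting genes to the left, while the abscisic acid (ABA) output list is spread around 0.

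Of 24 genes of salicylic acid synthesis and defence, 6 rose after drought recovery and 18 did not pass the test. All 24 members were tested, and in all 24 the 3 drought recovery libraries were above the 3 controls, against 10.3% of all genes tested. Over all genes 2.15% were called higher. The list median was 1.06, beside -0.05 for all genes. Without centring 4 passed and the median was 1.18, and with quantile scaling 5 passed with a median of 1.09. Calls numbered 2 without control replicate 2 or 3 and 13 without drought recovery replicate 1. Limma gave 21 of the 24 an unadjusted p under 0.05.

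The synthesis genes come first in the pathway. ICS1, whose enzyme makes the isochorismate from which most salicylic acid derives, had values of 0.78, 1.79 and 1.15 against 0.46, 0.36 and 0.37, and its difference of 0.84 ± 0.28 missed the threshold (adjusted p = 0.179). The spread within drought recovery was wide and replicate 2 was highest. EDS5, which exports isochorismate from plastids, differed by 0.73 (adjusted p = 0.0589) and PBS3, which conjugates isochorismate, by 1.27 (adjusted p = 0.0574). SARD1 and CBP60G, the transcription factors that switch ICS1 on, differed by 1.5 (adjusted p = 0.0623) and 1.54 (adjusted p = 0.107). FMO1, needed for systemic acquired resistance through N-hydroxypipecolic acid, rose by 1.23 ± 0.21 (adjusted p = 0.0398). UGT76B1, a glucosyltransferase of salicylic acid and N-hydroxypipecolic acid, had values of -3.74, -3.30 and -3.48 against -4.40, -4.49 and -4.49 and rose by 0.95 ± 0.10 (adjusted p = 0.000317). Its control SD was 0.05. Rlog draws low values together, which may narrow such a spread, though HSP17.4, also low, had a control SD of 0.26.

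Of the signalling and output genes, 3 signalling members rose, while PR1, PR2 and PR5 had larger differences and wider errors and did not pass. NPR1, a salicylic acid receptor and co-activator, rose by 0.41 ± 0.10 (adjusted p = 0.0386), and WRKY18, a transcription factor of the response, by 1.00 ± 0.16 (adjusted p = 0.0148). GRX480, a glutaredoxin that joins salicylic acid and jasmonate signals, rose by 0.50 ± 0.08 (adjusted p = 0.00497). The classic output gene PR1 had values of 0.52, 2.37 and 1.24 after drought recovery and -1.34, -3.11 and -3.59 in the control. The groups did not overlap, yet the difference of 4.05 ± 0.85 missed the threshold (adjusted p = 0.0926). PR2, a glucanase, differed by 2.91 ± 0.82 (adjusted p = 0.147) and PR5 by 2.03 ± 0.63 (adjusted p = 0.170), with control replicate 1 the highest control in both, at 0.29 and 0.28.

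Most of these defence genes were not called under drought itself. At the end-point, 3 of the 24 were higher than the control (24.5% of all genes were) and 3 lower (41.0% of all genes), with a median of 0.17, and 13 of the 24 were higher after recovery than at the end-point, where 37.9% of all genes were. UGT76B1 was 0.56 below the control at the end-point (-0.56, adjusted p = 0.000717) and 1.51 above that end-point after recovery (adjusted p = 8.11e-07). GRX480 likewise stood at -0.47 at the end-point and 0.97 above that level after recovery. WRKY18 stood at -0.26 at the end-point and 1.26 above that level after recovery. For SAG13, NPR1 and FMO1, the other 3 called genes, recovery and end-point did not differ past the threshold. PR1 at the end-point differed from the control by 0.15 (adjusted p = 0.907).

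The mean level of the list set the drought recovery libraries, at -0.67, -0.37 and 0.15 from lowest to highest, above the controls at -1.83, -1.73 and -1.26. The other recovery libraries spanned -1.83 to 0.35, and 4 of the 21 exceeded the middle drought recovery library. Those 4 were high light replicates 2 and 3, heat with high light replicate 3 and heat with drought replicate 3, and the other replicates of these groups were low. Against the mean of the other groups the list median was 0.71, and 0 of its members passed in limma at the adjusted p, with 9 at an unadjusted p under 0.05.

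**Figure D3:**
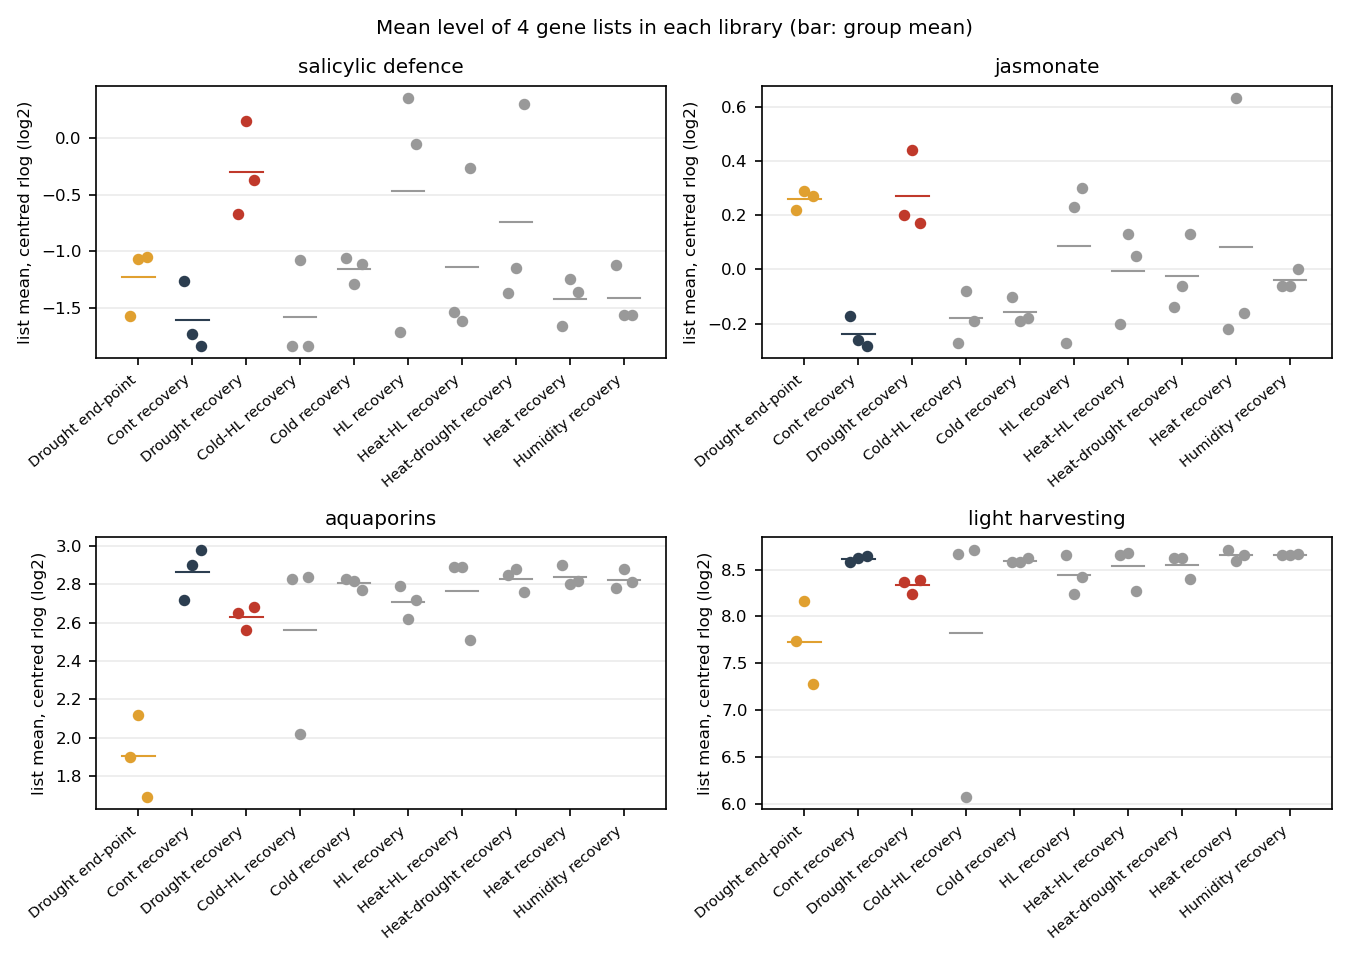
Mean centred rlog (log2) of 4 gene lists in every library of the drought end-point, the control, drought recovery and the 7 other recovery groups; each point is 1 library and each bar a group mean. Drought recovery lies above the control for salicylic defence and jasmonate and below it for aquaporins and light harvesting, and single libraries of other groups (high light, heat with high light, heat with drought, cold with high light replicate 2) lie as far out or farther.

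Jasmonate genes showed a few rises. Of 18 tested, 3 passed, all higher, where 2.15% of all genes were called higher, and the median was 0.23 beside -0.05 for all genes. The rises numbered 1 without control replicate 2 or 3, 5 without control replicate 1, and 2 (beside 1 fall) without drought recovery replicate 1. JAZ1, a repressor that jasmonate itself induces, had values of -0.05, 0.16 and 0.13 against -0.78, -0.90 and -0.97 and rose by 0.96 ± 0.09 (adjusted p = 0.000123), with 1.44 at the end-point. JAZ5 rose by 0.40 (adjusted p = 0.0294) and OPR3, a synthesis enzyme, by 0.26 (adjusted p = 0.0455). TAT3, a tyrosine aminotransferase induced by jasmonate, had values of 0.60, 1.82 and 1.1 against -1.35, -2.53 and -2.81, and its difference of 3.40 ± 0.56 missed the threshold (adjusted p = 0.0582). The defensin gene PDF1.2 was high in 1 drought recovery library, 1.02 in replicate 2 against -2.60 and -2.51 in the others. LOX2 and the storage protein gene VSP2 differed by 0.39 and 0.53, neither past the test.

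Among 15 genes of rapid stress signalling, 2 rose and 0 fell, where 2.15% of all genes were called higher and 2.07% lower, with a median of 0.39. WRKY40 rose by 0.91 ± 0.16 (adjusted p = 0.0226) and the zinc finger gene ZAT12 by 0.79 ± 0.12 (adjusted p = 0.00420). TCH3, a calmodulin-like touch gene, differed by 1.62 (adjusted p = 0.233), and its control replicate 1 at 2.34 lay inside the drought recovery range of 2.21 to 3.26. Of 16 heat shock genes 1 rose, the co-activator MBF1C, by 0.42 ± 0.10 (adjusted p = 0.0285), and HSP90.1 differed by 1.53 (adjusted p = 0.0875).

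Some called genes were on opposite sides of the control under drought and after it. Of the 408 higher genes, 53 were called lower at the end-point, where 41.0% of all genes were. Of the 394 lower genes, 72 were called higher there, where 24.5% of all genes were. TPS04, which makes the volatile precursor geranyllinalool, rose by 1.26 ± 0.17 from the control (adjusted p = 0.0155) and stood at -0.58 from it at the end-point. ARD3, of the methionine salvage cycle, rose by 1.25, with -0.63 at the end-point. MDHAR (AT3G09940), which recycles ascorbate, rose by 1.09, with -0.45 at the end-point, and MSRB8, which repairs oxidised methionine, by 0.99, with -0.42 there. In the other direction, the glycine-rich protein gene AT2G05540 stood 0.51 above the control under drought and 0.93 ± 0.19 below it after recovery (-0.93, adjusted p = 0.0400). AT1G62510, a member of the lipid transfer family, stood 2.44 above the control under drought and 0.90 ± 0.14 below it after recovery (-0.90, adjusted p = 0.0151), with values of -0.41, -0.32 and -0.03 against 0.54, 0.46 and 0.92.

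The lower genes moved by less. SEN1 (AT4G35770, chromosome 4, 16944878 to 16946266, plus strand), a gene induced in darkness and by sugar shortage, had values of -2.06, -1.71 and -1.57 after drought recovery and -0.38, -0.85 and -0.96 in the control. The groups did not overlap, and the difference from the control was -1.05 ± 0.18 (adjusted p = 0.0243). At the end-point SEN1 differed from the control by -0.52, and recovery differed from the end-point by -0.53 (adjusted p = 0.0192). ARPN, a plantacyanin of the cell wall, fell by 0.74 ± 0.12 (adjusted p = 0.00690), and ADS1, an acyl desaturase, by 0.68 ± 0.09 (adjusted p = 0.00217). The beta-amylase family gene BAM6 fell by 0.62 ± 0.14 (adjusted p = 0.0296). PP2-A13, of the phloem lectin family, had values of -1.25, -1.68 and -1.34 against -0.79, -0.67 and -0.66 and fell by 0.72 ± 0.11 (adjusted p = 0.00420).

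Most genes of the light harvesting list fell under median centring, by less than 1 on the log2 scale. The list holds antenna genes and the Rubisco small subunit genes RBCS1A, RBCS1B, RBCS2B and RBCS3B. Of 21 members, 14 fell and 0 rose, where 2.07% of all genes were called lower, and all 21 differences were negative. The list median was -0.30, and the differences ran from -0.45 to -0.03. LHCB2.3, which encodes a major antenna protein of photosystem II, had values of 6.75, 6.54 and 6.80 against 7.03, 7.11 and 7.19 and fell by 0.42 ± 0.08 (adjusted p = 0.0120). LHCB4.2, a minor antenna protein, fell by 0.45 ± 0.07 (adjusted p = 0.00420), and LHCA1, of photosystem I, by 0.35 ± 0.07 (adjusted p = 0.0133).

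That result depended on the scaling. Without centring, 2 genes of the list were lower, with a median of -0.18. With quantile scaling 2 were lower and 1 higher, with a median of -0.00. No gene of the list passed in limma without control replicate 2 or 3. Antenna copies are alike in sequence, so reads may be split between them, and cold with high light replicate 2 lay far below all other recovery libraries for this list, at 6.07. Among the named genes that passed the test, the largest falls whose window holds a G-box (CACGTG, in capitals), a site of light and abscisic acid responses, were PP2-A13 and LHCB2.3, and their windows are shown for that reason.
PP2-A13, chr3:22602566-22602865, plus strand: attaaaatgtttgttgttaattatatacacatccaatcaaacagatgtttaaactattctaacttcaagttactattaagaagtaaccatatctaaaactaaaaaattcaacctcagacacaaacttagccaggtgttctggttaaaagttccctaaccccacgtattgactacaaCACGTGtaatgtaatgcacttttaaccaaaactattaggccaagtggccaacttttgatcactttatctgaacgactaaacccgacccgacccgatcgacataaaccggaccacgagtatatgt
LHCB2.3, chr3:10255656-10255955, plus strand: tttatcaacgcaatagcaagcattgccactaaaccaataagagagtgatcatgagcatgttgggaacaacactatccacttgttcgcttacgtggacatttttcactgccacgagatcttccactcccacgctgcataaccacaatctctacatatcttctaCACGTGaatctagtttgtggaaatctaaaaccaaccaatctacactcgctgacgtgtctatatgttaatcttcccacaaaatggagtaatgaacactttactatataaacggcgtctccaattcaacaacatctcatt
The sites start at bases -74 and -88. A G-box was present in 50 of 386 windows of the lower genes (13.0%), in 29 of 407 of the higher genes (7.1%) and in 9.0% of all tested windows. The abscisic acid response element (ACGTGGC or ACGTGTC), which can overlap a G-box, was present in 13.7%, 7.4% and 9.0% of the same 3 sets.

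A few water channel genes were lower. Of 18 aquaporins tested, 2 fell and 0 rose, where 2.07% of all genes were called lower, and the median was -0.22. None had a positive difference, against 36.7% of all genes, and 11 had an unadjusted p under 0.05, all lower. The plasma membrane channel PIP1;5 had values of 2.67, 2.78 and 2.86 against 3.10, 3.25 and 3.24 and fell by 0.43 ± 0.07 (adjusted p = 0.00517). The vacuolar channel TIP2;1 fell by 0.41 ± 0.09 (adjusted p = 0.0315). At the end-point, 15 of the 18 were lower, where 41.0% of all genes were, with a median of -1.18. PIP1;5 and TIP2;1 stood at -1.49 and -2.20 there. After recovery 13 of the 18 were above the end-point level, as were 37.9% of all genes. Without centring 0 of the 18 passed in limma, 3 were positive and the median was -0.10. The falls numbered 0 without control replicate 2 or 3, 1 without drought recovery replicate 2, 6 without drought recovery replicate 1 and 11 without control replicate 1.

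A few genes of the growth lists were called lower after recovery, where 2.07% of all genes were. Of 20 wall growth genes, 2 fell, the xyloglucan enzymes XTH6 (-0.51 ± 0.07, adjusted p = 0.00316) and XTH4 (-0.29 ± 0.08, adjusted p = 0.0494), and the median was -0.12. The same list had 15 lower genes at the end-point, where 41.0% of all genes were lower, with a median of -1.69. The expansin EXPA8 differed from the control by -3.48 at the end-point and by -0.03 after recovery. Of 16 cell cycle genes 0 passed in limma after recovery (1 at an unadjusted p under 0.05), with a median of -0.10. At the end-point all 16 were lower, as were 41.0% of all genes, with a median of -1.11. All 16 were higher after recovery than at the end-point, as were 37.9% of all genes. Of 14 auxin growth genes, IAA3 fell by 0.54 ± 0.08 (adjusted p = 0.00420) and SAUR21 by 0.40 ± 0.10 (adjusted p = 0.0366), with a median of -0.26. That list gave 7 falls without control replicate 1, 3 without drought recovery replicate 3, and 1 without control replicate 2, control replicate 3 or drought recovery replicate 2. Among 15 genes of the stomatal lineage, SPCH, which starts it, fell by 0.40 ± 0.11 (adjusted p = 0.0497), and the median was -0.19. The median without centring was -0.14 for the auxin list and -0.07 for the stomatal list. No stomatal gene passed in limma without centring or with quantile scaling. The wall growth and auxin lists gave 1 fall each without centring, and 1 and 2 with quantile scaling.

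Abscisic acid output genes, the core of the drought response, had a median near the control level. Of 25 genes tested, 24 were higher than the control at the end-point, where 24.5% of all genes were, with a median of 3.10. After recovery 0 were higher and 1 lower, where 2.15% and 2.07% of all genes were, with a median of -0.01. The differences ran from -0.59 to 1.48, so members lay on both sides of the control. At an unadjusted p under 0.05 in limma, 5 were higher and 4 lower, where 23.1% of all genes passed in either direction. Without drought recovery replicate 1, 3 were called higher; without control replicate 1, 3 were lower. After recovery 24 of the 25 were below their end-point level, where 23.8% of all genes were. RD29B, of a protective hydrophilic protein, had values of -3.05, -0.80 and -3.05 after recovery against -2.52, -4.10 and -3.46. The difference was 1.06 ± 0.86 (limma adjusted p = 0.528), beside 9.23 at the end-point. RAB18 had values of 0.38, 1.83 and -0.05 against 1.03, 0.48 and 0.99, so that the groups overlapped. Its difference was -0.11 ± 0.58 (limma adjusted p = 0.933), beside 8.49 at the end-point. Drought recovery replicate 2 was the highest of the 6 libraries for both genes.

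The 1 called member was COR47, a dehydrin, which fell by 0.54 ± 0.08 (adjusted p = 0.00420) and stood at 2.51 at the end-point. NAC019, a transcription factor shared with jasmonate signalling, had values of -2.25, -1.63 and -1.27 against -3.37, -2.96 and -3.25, and its difference of 1.48 ± 0.28 just missed the threshold (adjusted p = 0.0572). HAI1, a phosphatase that limits abscisic acid signals, differed by 1.17 ± 0.36 (adjusted p = 0.156) with all drought recovery libraries above all controls.

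In abscisic acid metabolism, 2 of 11 genes rose and 0 fell, where 2.15% of all genes were called higher and 2.07% lower. AAO3, the oxidase of the last synthesis step, had values of 1.53, 1.83 and 1.8 against 1.39, 1.04 and 1.18 and rose by 0.52 ± 0.10 (adjusted p = 0.0229), with 1.81 at the end-point. BGLU18, which frees abscisic acid from its glucose ester, rose by 0.33 ± 0.08 (adjusted p = 0.0400). NCED3, the drought-induced and limiting step, differed by -0.58 ± 0.22 (limma adjusted p = 0.179), beside 3.09 at the end-point. The catabolic hydroxylases CYP707A1 and CYP707A3 differed by 0.18 (adjusted p = 0.602) and 0.05 (adjusted p = 0.774). Of the 9 receptor genes 0 passed in limma, with 1 at an unadjusted p under 0.05 and a median of -0.11.

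**Figure D4:**
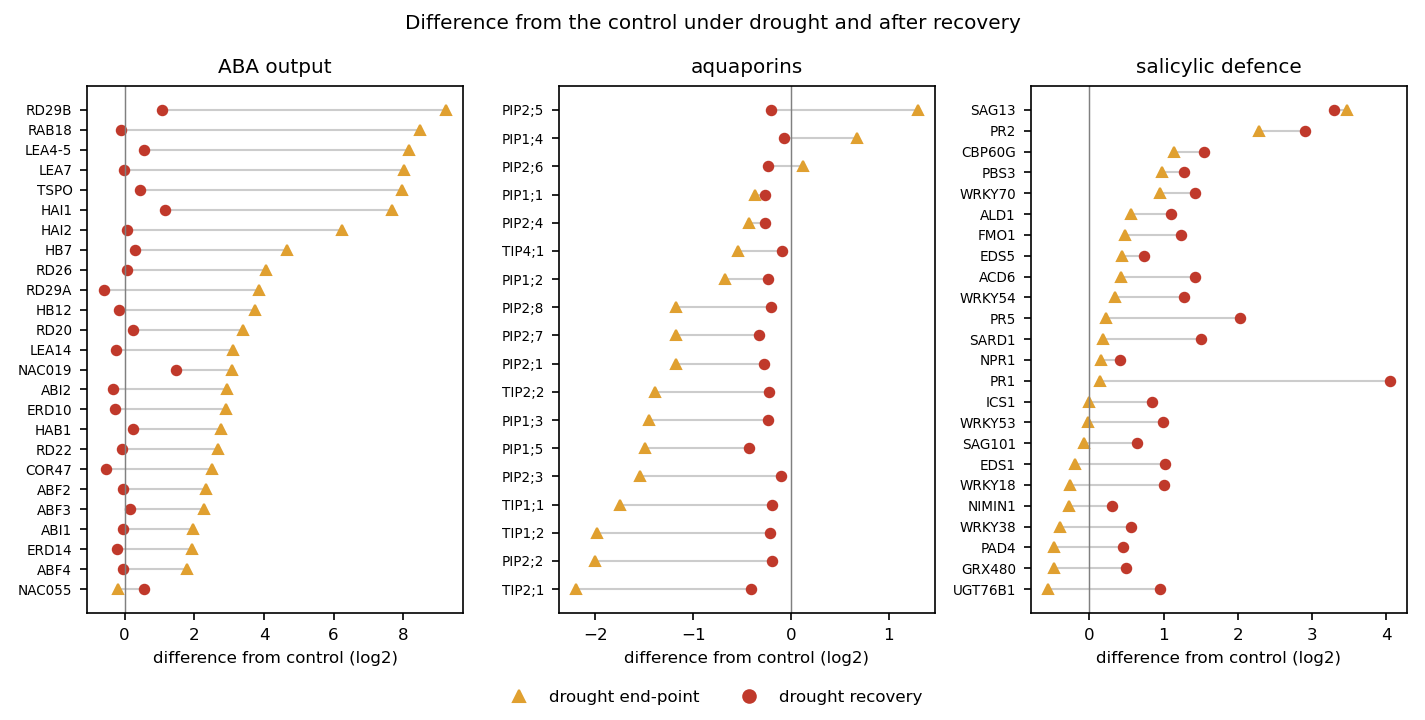
Difference from the control (log2, centred rlog) of each tested member of 3 lists at the drought end-point (triangles) and after drought recovery (circles), ordered by the end-point value; both use the same control libraries. ABA output genes lie far right at the end-point and near 0 after recovery, most aquaporins lie left at the end-point and close to 0 after it, and most salicylic defence genes lie farther right after recovery than at the end-point.

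Osmolyte genes gave no calls under median centring, where 4.22% of all genes were called. Of 8 proline genes 0 passed in limma, with 1 at an unadjusted p under 0.05 and a median of -0.03. Of 5 raffinose genes 0 passed, with 2 unadjusted and a median of -0.53, and 1 was lower without centring. The raffinose list mean was -0.21 to -0.20 after drought recovery, below the controls at -0.03 to 0.34. Of the 21 other recovery libraries, 20 exceeded the middle drought recovery library. P5CS1, the limiting enzyme of proline synthesis, had values of 4.46, 3.74 and 3.60 against 3.92, 4.32 and 4.67. Its difference was -0.37 ± 0.33 (limma adjusted p = 0.571), beside 2.89 at the end-point. PDH1, which starts proline breakdown, differed by 0.05 (limma adjusted p = 0.914). GOLS2, of raffinose synthesis, differed by -0.53 (limma adjusted p = 0.424), beside 3.79 at the end-point. The cold regulon, much of which drought also induces, had a median of -0.58 over 13 genes with 1 call, COR47 (5 without drought recovery replicate 1 or control replicate 1), and COR413IM1, of a plastid membrane protein, differed by -1.14 ± 0.24 (adjusted p = 0.0816). Of 14 cuticle and wax genes, CER3 fell by 0.29 ± 0.06 (adjusted p = 0.0206), and the median was -0.16. Of 15 senescence and starvation genes, SAG13 rose and SEN1 fell, and the chlorophyll breakdown genes PAO and PPH, which stood at 2.11 and 1.38 at the end-point, differed by -0.10 and 0.01.

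Over all genes, more genes differed from the control at the end-point than after recovery. At the end-point 12452 genes (65.5%) differed from the control, 1946 of them by at least 1. Of those 1946, 163 were called on the same side after recovery, 30 on the opposite side, and 1753 were not called. Recovery and end-point differed at 11730 genes (61.7%). Of the 408 genes higher after recovery, 202 were also higher at the end-point, where 24.5% of all genes were, and 153 were not called there. Of the 394 lower genes, 238 were also lower, where 41.0% of all genes were, and 84 were not called. Recovery, end-point and control values come from the same 9 libraries, so these counts share their controls.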

How the data were processed

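RNA was taken from rosette leaves and sequenced as paired reads, per the labels' protocols. The submitters' processing notes name Trimmomatic, STAR, featureCounts, DESeq2 and the build TAIR10, without versions or roles. The authors deposited 1 table of regularised log2 (rlog) values for 28775 genes. Raw counts were not analysed here, so read depth is unknown, and how strand and shared reads were treated is not given in the sources used here. Of 57 columns, 51 were matched to samples by name and 6 were not used.

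Genes with a mean rlog of at least 3 over the 51 libraries (19010) were kept, and each library was centred on its median over them. Drought recovery was tested against control in these 6 libraries, against the mean of 7 other recovery groups, and beside the drought end-point, in R 4.3.3 with limma 3.58.1 (moderated test with intensity trend and robust variances, Benjamini-Hochberg over all tested genes, threshold 0.05). The scripts were tested on simulated data. Members and lists were chosen with earlier results of these data known. Named genes were the 12 largest rises and 12 largest falls among called genes whose groups did not overlap (those called against both references first), up to 4 members per list by size with fixed anchor genes, and up to 6 called genes of opposite sign to a called end-point difference; other list members were named after their values were seen. Symbols came from RefSeq TAIR10.1, which matched 28009 IDs. Promoter windows came from the same assembly. Alternatives were no centring, quantile scaling, other filters, other libraries in the fit, plain variances, a replicate block and leaving out libraries. Drought recovery and control samples that share a replicate number did not deviate together (correlations of -0.37, -0.19 and 0.01).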

Additional observations from a re-analysis of the deposited data

Results flagged for a closer look

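BCA3 was picked out because its level after drought recovery differed from the mean of the other recovery groups by the test of that difference itself (0.52 higher, limma adjusted p = 0.0471, all 3 libraries above the 21 others). It was the single gene of 19010 to do so. Its adjusted p in limma was 0.00741 without heat with high light replicate 3. The call was lost (0 genes) without cold replicate 1, heat replicate 3, heat with drought replicate 1, or high light replicate 1 or 3. It was also lost without cold with high light replicate 1 or 3, any water excess replicate, or drought recovery replicate 1 or 2. BCA3 overlaps AOR on the other strand, and the part of that overlap or of single libraries in the result was not tested. Groups of 3 libraries were not tested for outlying samples.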

How the results depend on the processing

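The limits are small groups, an unknown read depth, and rlog values that compress low genes. The 802 calls against the control became 486 without centring (36 lower), 501 with quantile scaling (194 lower), 2255 with no filter on low values (1080 higher, 1175 lower), and 52 at a difference of at least 1 (51 higher, 1 lower). Plain variances left 164 lower. Fits over all recovery libraries or all 51 libraries gave 0, 0 higher and 0 lower, where the spread is wider. Leaving out 1 library gave 73 to 1815 calls, 54 to 883 higher and 19 to 932 lower, and 71 of the 802 calls were shared without control replicate 2. The single call against the other recovery groups became 4 with quantile scaling, 2 in the wider fits, and 0 at a mean rlog of 5 or more, with plain variances or at a difference of 1; calls against both references were then 4, 0, 0, 0 and 0. Without the heat with drought group both counts were 2, and without the high light group 25 and 16. Leaving out 1 library gave 0 to 5 for drought recovery or control libraries, and 0 to 499 (0 to 146 for both references) for libraries of other groups, a choice made after seeing the data. Drought recovery against the end-point gave 18942 without a filter, 1736 at a difference of 1, and 10041 to 11472 leaving out a library. With a replicate block the counts were 531 (237 lower), 66 against the other groups and 24 against both. Shared replicate numbers were checked only between drought recovery and control libraries. Whether they pair samples of the other groups was not tested. No named gene that passed in the main setting or in an alternative turned its direction there. Genes that passed in neither could turn, as STM did: 6.15 against 6.07 without centring, beside a centred difference of -0.04. All 57 called named genes missed the threshold in the wider fits.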

Other observations

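Further lists held between 0 and 4 genes that passed the test, where 4.22% of all genes did. Of 20 glucosinolate genes, 3 rose and 1 fell. CYP79B2, which starts the indole branch, had values of 1.92, 2.05 and 2.06 against 1.43, 1.27 and 1.21 and rose by 0.70 ± 0.07 (limma adjusted p = 0.000252). CYP83B1, the next enzyme of that branch, was 0.39 ± 0.09 above the control (adjusted p = 0.0435), with -1.21 at the end-point. MAM3, of the aliphatic branch, rose by 0.34 ± 0.09 (adjusted p = 0.0415), and the myrosinase TGG2 fell by 0.27 ± 0.06 (adjusted p = 0.0270). The list median was 0.00.

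Starch and sugar genes had 2 rises among 19, GPT2 and the amylase BAM5 (0.42 ± 0.10, adjusted p = 0.0307), and a median of -0.22. At an unadjusted p under 0.05 in limma, 10 of the 19 were lower and 2 higher, where 23.1% of all genes passed in either direction. Of 15 nitrogen genes, the nitrate transporter NRT1.8 rose by 0.39 (adjusted p = 0.0272) and the nitrite reductase NIR1 fell by 0.36 (adjusted p = 0.0240), with 8 lower and 2 higher at the unadjusted p. The phosphatase PAP17 was the single rise of 12 phosphate genes, by 0.39 (adjusted p = 0.0241), with 3.02 at the end-point. Of 18 clock genes RVE8 alone passed, higher by 0.40 (adjusted p = 0.0249), and of 8 cytokinin response genes ARR6 alone, lower by 0.38 (adjusted p = 0.0301). In the photoprotection list VDE1, of the xanthophyll cycle, fell by 0.39 (adjusted p = 0.0167), 1 of 14. Of 10 sulfur genes 0 passed in limma (6 at an unadjusted p under 0.05, and 3 higher by the adjusted p without centring), with a median of 0.20. Of 12 iron genes 0 passed (1 unadjusted), with a median of -0.01, and of 10 hypoxia and 16 flavonoid genes 0 (0 unadjusted), with medians of -0.02 and 0.05. Of chloroplast-encoded transcripts 3 of 62 were lower, with a median of -0.15, and of mitochondrial ones 0 of 14 (0 at an unadjusted p under 0.05 in limma), with a median of -0.08. The 14 tested markers of other tissues gave 0 calls in limma (5 at an unadjusted p under 0.05, all lower), with medians of -0.09 for 4 phloem, -0.22 for 4 epidermis, 0.04 for 2 meristem, -0.00 for 2 root and -0.14 for 2 flower genes tested.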
